A study of Homo sapiens with 12 samples.

Results

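The heat shock proteins and their DNAJ partners, together with the cytosolic chaperonin CCT and the heat shock factors HSF1 and HSF2, were followed in cultured human ovarian cancer cells of the ES-2 line. Members were all genes whose current symbol names an HSP90, an HSP70 or its larger HSP110 relatives, a small heat shock protein, a DNAJA, DNAJB or DNAJC protein, a CCT subunit, the mitochondrial chaperonin (HSPD1 or HSPE1), HSF1 or HSF2. This gave 74 of the 14029 genes tested, of which 46 were assigned to the cytosol and nucleus, 13 to the endoplasmic reticulum (ER), 9 to mitochondria and 6 to vesicles or to no compartment. Both groups were ES-2 cells given 15 µM cisplatin, a platinum drug that crosslinks DNA, for 8 hours. One group of 3 libraries carried the control vector (labelled PLKO, genotype WT), and the other group of 3 carried a short hairpin RNA against the kinase SRMS (genotype SRMS knockdown). The labels do not say how many hairpins were used or whether the replicates were separate cultures, so p-values measure only the spread between these libraries, which may be technical. The other 6 of the 12 samples had PBS in place of cisplatin and are not analysed here, so both groups share the drug and no response to it was measured.

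Chaperones bind proteins that are not yet folded or have come unfolded. HSP70 proteins do this in cycles of ATP hydrolysis that DNAJ proteins (HSP40) start and that nucleotide exchange factors reset, HSP90 acts later on clients such as kinases and steroid receptors, and the barrel-shaped chaperonins enclose whole proteins such as actin and tubulin. Heat and other proteotoxic stress release HSF1, which binds heat shock elements (inverted repeats of the unit GAA) in the promoters of the inducible members. In the ER, HSPA5 and HSP90B1 are instead induced through the unfolded protein response.

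The recovered depth was 28009232 to 56855428 reads per library, and members took 3.09% to 3.14% of the reads with the vector and 2.87% to 2.99% in the libraries labelled SRMS shRNA (shRNA-labelled libraries). SRMS itself was not lower in the latter, with a deposited signal of 0.397 ± 0.384 with the vector and 0.755 ± 0.384 in the shRNA-labelled libraries (mean ± SD, n = 3 each) and a limma adjusted p of 0.168, so directions are given by label only. The signal is a read count over the effective library size that the authors used, times the factor of CPM. SRMS had 2, 14 and 47 reads in vector replicates 1 to 3 and 9, 39 and 27 in the shRNA-labelled replicates. With so few reads neither a fall nor a rise of SRMS can be judged. Fitted with the replicate number as a block, SRMS passed as higher (limma adjusted p = 0.00782). Without vector replicate 3 or without shRNA-labelled replicate 1 it also passed as higher, with adjusted p from limma of 0.0281 and 0.0245. Replicate 1 of each group stood apart from replicates 2 and 3. Mitochondrially encoded mRNA took 4.15% to 4.83% of reads with the vector and 5.40% to 6.12% in the shRNA-labelled libraries, and its part in the results was not tested. Of 6 epithelial markers 3 were among the genes analysed, the keratins KRT7, KRT8 and KRT18, at 91.4 or more in every library. KRT19, EPCAM and CDH1 were not among them. KRT7 was lower in the shRNA-labelled libraries (log2 fold change -0.36), and KRT8 (0.18) and KRT18 (0.21) were higher. The mesenchymal genes VIM and FN1 were at 698 or more and CDH2 at 62.8 to 72.3. Of 5 ovarian or Mullerian markers 3 were among the genes analysed (PAX8, WT1 and ARID3A), with a summed signal of 6.36 to 7.09 with the vector and 3.90 to 4.62 in the shRNA-labelled libraries, and PAX8 was at 0.365 or less. The summed signal of the 4 leukocyte markers, of which only CD74 was among the genes analysed, was 0.261 to 0.535 with the vector and 0.220 to 0.620 in the shRNA-labelled libraries. That of the 4 endothelial markers, of which 3 were among the genes analysed, was 14.8 to 16.8 and 5.88 to 8.36, nearly all of it from CDH5.

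Stretches of the promoter are shown for the members that carry heat shock elements and on which the results turn, since the deposited values let genes with and without the element be set side by side. They come from RefSeq windows of GRCh38.p14 that run from 250 bases before a gene's start to 50 bases after it, read in the direction of the gene, 5′ to 3′. Capitals mark GAANNTTC or TTCNNGAA, that is, 2 units facing or turned away from each other with 2 bases between, and overlapping matches run together. Positions named later count from the start site, with negative numbers upstream.
HSPA1A (chr6:31815425-31815456, plus strand): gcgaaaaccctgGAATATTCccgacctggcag
HSPA1B (chr6:31827621-31827652, plus strand): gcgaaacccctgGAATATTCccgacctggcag
DNAJB1 (chr19:14518425-14518486, minus strand): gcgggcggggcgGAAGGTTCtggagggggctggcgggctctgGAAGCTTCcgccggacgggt
HSPA6 (chr1:161524454-161524490, plus strand): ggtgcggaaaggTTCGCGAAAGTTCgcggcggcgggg
HSPA8 (chr11:123062167-123062203, minus strand): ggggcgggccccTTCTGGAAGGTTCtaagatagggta
HSP90AA1 (chr14:102087093-102087144, minus strand): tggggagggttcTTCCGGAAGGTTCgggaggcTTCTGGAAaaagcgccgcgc
HSP90AB1 (chr6:44247766-44247855, plus strand): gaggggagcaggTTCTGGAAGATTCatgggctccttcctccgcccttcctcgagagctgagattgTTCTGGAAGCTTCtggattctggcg
DNAJA4 (chr15:78264459-78264529, plus strand): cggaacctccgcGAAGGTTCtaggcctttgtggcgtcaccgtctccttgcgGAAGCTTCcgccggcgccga
HSPB1 (chr7:76302479-76302510, plus strand): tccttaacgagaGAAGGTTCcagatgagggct
HSPD1 (chr2:197500056-197500090, minus strand): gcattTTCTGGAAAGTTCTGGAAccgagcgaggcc

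HSPA1A and HSPA1B, neighbouring copies of the inducible HSP70, share the same capital letters, in stretches from -118 to -87 and from -117 to -86. HSPA6, HSPA8, HSP90AA1, HSP90AB1 and HSPD1 show runs of 3 or more alternating units, whereas DNAJB1 and DNAJA4 each hold a pair of separate 2-unit matches. For the ER, HSPA5 and HSP90B1 are shown because they were the 2 members with an ER stress element, written as CCAAT, then 9 bases, then CCACG, on either strand.
HSPA5 (chr9:125241379-125241421, minus strand): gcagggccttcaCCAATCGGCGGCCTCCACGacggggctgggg
HSP90B1 (chr12:103930309-103930351, plus strand): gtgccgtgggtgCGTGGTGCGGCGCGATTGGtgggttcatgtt

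Windows were found for 67 of the 74 members, 89 in all since some genes have several. The 2-unit element stood in 27% of the members' windows, in 10.7% of the windows of genes tested and in 13.5% of all windows of this length. Runs of 3 units in either orientation stood in 7.87%, 0.371% and 0.490%, and the ER stress element in 2.25%, 0.121% and 0.0769%. A match is a description of the letters and not a site of binding.

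The chaperones as a whole split in both directions, at shares near those of all genes. By limma on log2(signal + 0.5), calling genes at a Benjamini-Hochberg adjusted p under 0.05 across the table, 18 members were higher and 26 lower in the shRNA-labelled libraries, and 30 did not pass. Of all genes tested 56.8% passed, 26.6% higher and 30.2% lower, and the 59.5% of members that passed is a share near that background. Without vector replicate 2 only 11 members were higher. The groups' values did not overlap for 47 of 74 members and for 62.7% of all genes. The median log2 fold change of the members was -0.012 and that of all genes 0.003. In such bulk RNA, fewer cells of a kind and less RNA per cell cannot be told apart. A change of at least 0.5 on the log2 scale, which 17.1% of all genes passed together with the threshold, was reached by 5 members: DNAJA4, HSPB6 and DNAJC4 were higher, and DNAJC16 and DNAJC3 lower.

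**Figure D1:**
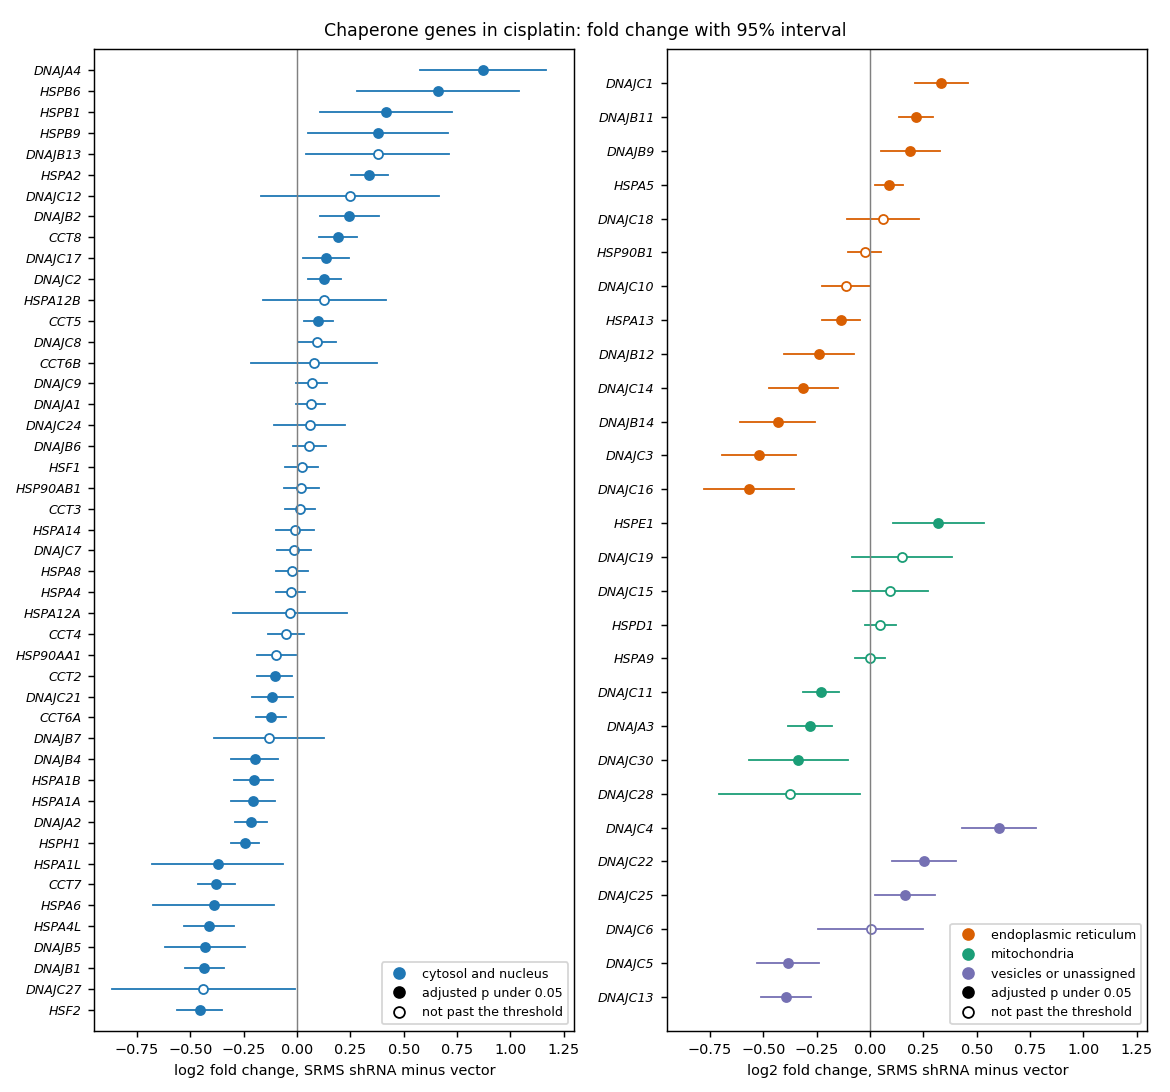
Log2 fold change (shRNA-labelled minus vector, on log2(signal + 0.5)) of each of the 74 members, coloured by compartment, with lines for the 95% interval and filled points for a limma adjusted p under 0.05. Members lie on both sides of 0 in each compartment, from -0.57 for DNAJC16 to 0.87 for DNAJA4.

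How the 2 groups were scaled set which direction was in the majority. Aligning the libraries on their medians moved the median of all genes from 0.003 to 0.163, and 44.6% of all genes were then higher and 17.9% lower. Of the members 38 were then higher and 12 lower, with a median of 0.148. Under quantile scaling 28.3% of all genes were higher and 26.3% lower, against 16 and 33 members and a member median of -0.12. With a replicate block and the trends with transcript length and GC content removed, 30.2% of all genes were higher and 29.8% lower, and 25 members were higher and 26 lower. DNAJB1, HSF2, CCT7 and HSPA4L stayed lower and HSPA2, DNAJC4 and DNAJA4 stayed higher in sign under each of these scalings, as the plot of fold changes by scaling shows, although HSPA4L did not pass with the trends removed (limma adjusted p = 0.0659). HSPA8, HSPA9, HSPD1, HSP90AB1 and HSP90B1 passed as higher with aligned medians and as lower under quantile scaling.

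**Figure D2:**
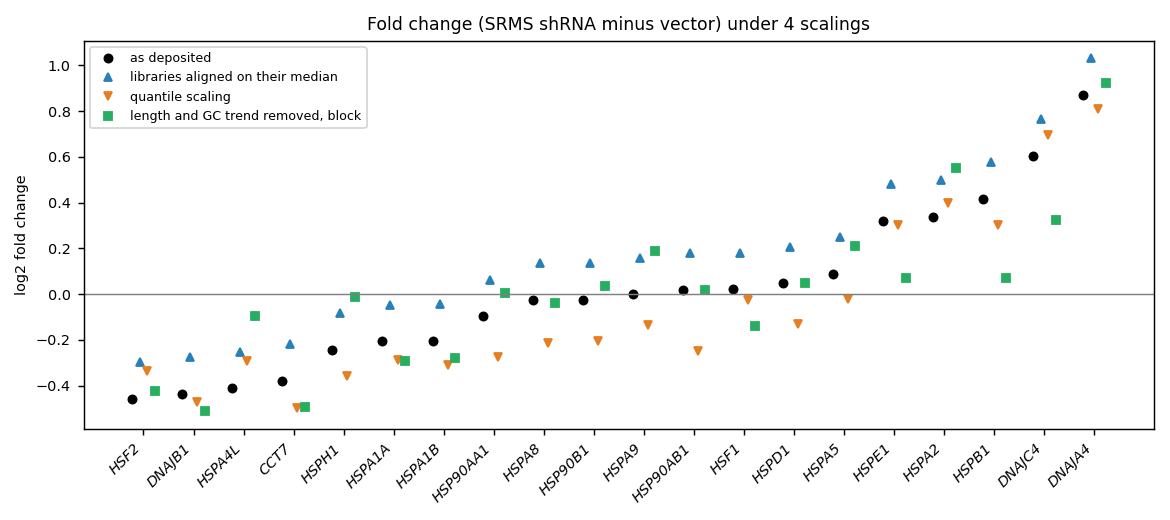
Log2 fold change (shRNA-labelled minus vector) of 20 named members as deposited (circles), with libraries aligned on their median (upward triangles), under quantile scaling (downward triangles), and with a replicate block and the length and GC trends removed (squares). Genes with small changes such as HSP90AB1 and HSPA8 fall on both sides of 0, while HSF2 and DNAJB1 lie below 0 and DNAJA4 above it under all 4.

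The transcription factors of the family differed as deposited. HSF2, which binds the same elements as HSF1 and can form mixed trimers with it, had a signal of 35.6, 36.1 and 36.8 in vector replicates 1 to 3 and of 25.5, 26.6 and 26.6 in the shRNA-labelled replicates. All 3 shRNA-labelled libraries lay below all 3 vector libraries. HSF2 (ENSG00000025156, chr6:122399546-122433119 on the plus strand) was lower by a log2 fold change of -0.46 (SE 0.047, limma adjusted p = 2.33e-05). HSF1, the main factor of the heat shock response, was at 177, 179 and 178 with the vector and at 175, 183 and 185 in the shRNA-labelled libraries. Its groups overlapped, and the log2 fold change of 0.02 (95% interval -0.05 to 0.10) did not pass. HSF1 passed as higher with libraries aligned on their median (0.18, limma adjusted p = 0.00162) and as lower with the replicate block and the length and GC trends removed (-0.14, limma adjusted p = 5.11e-05), while HSF2 was lower in both fits. The log2 ratio of HSF1 to HSF2 was 2.28 ± 0.0177 with the vector and 2.76 ± 0.0122 in the shRNA-labelled libraries (mean ± SD, n = 3 each). The 2 sets of ratios did not overlap, with p = 0.1 in a two-sided exact permutation test, the smallest p that 3 against 3 can give, and 0.15 after adjustment over the 3 pairs compared.

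Family and compartment counts here and below stand beside 26.6% of all genes higher and 30.2% lower as deposited. The shares of all genes were 44.6% and 17.9% with aligned medians, and 28.3% and 26.3% under quantile scaling. Among the HSP70 and HSP110 genes 2 of 15 were higher and 7 lower. These became 6 and 2 with libraries aligned on their median and 1 and 10 under quantile scaling. Without vector replicate 1 or without shRNA-labelled replicate 3 only 4 were lower, and the count of higher genes was 1 without replicate 2 or 3 of either group. HSPA1A, the first of the stress-inducible copies, had a signal of 387, 428 and 431 with the vector and of 347, 362 and 369 in the shRNA-labelled libraries. HSPA1B stood at 444, 478 and 484 and at 394, 410 and 416. In both, every shRNA-labelled library lay below every vector library, and replicate 1 was the lowest of its group in each. Log2 fold changes were -0.21 (SE 0.046, limma adjusted p = 0.00312) and -0.20 (SE 0.040, limma adjusted p = 0.00157). With libraries aligned on their median they were -0.05 and -0.04 and did not pass. The 2 genes are near-identical copies on chromosome 6 whose reads the counting could split, so their separate values are uncertain.

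HSPH1, an HSP110 protein that exchanges nucleotide on HSP70, was at 506, 516 and 517 with the vector and at 436, 432 and 432 in the shRNA-labelled libraries. The groups lay well apart, with a log2 fold change of -0.24 (SE 0.030, limma adjusted p = 6.84e-05). With the replicate block and the length and GC trends removed the value was -0.01 and did not pass, and its transcript is 5191 nt long. HSPA4L, another HSP110 relative, fell from 35.9 ± 0.375 to 26.9 ± 1.42 (log2 fold change -0.41, limma adjusted p = 9.59e-05), and with those trends removed its log2 fold change of -0.10 did not pass. HSPA2, a constitutive HSP70 known best from the testis, ran the other way. It was at 49.1, 48.8 and 51.0 with the vector and at 63.2, 62.7 and 62.7 in the shRNA-labelled libraries, a log2 fold change of 0.34 (SE 0.040, limma adjusted p = 5.23e-05). HSPA2 shares 4464 bases with an antisense gene on the opposite strand. HSPA8, the constitutive HSC70 and the family's highest member per kb of transcript, was at 3452, 3501 and 3562 and at 3410, 3462 and 3468. Those ranges overlapped, and the log2 fold change was -0.02 (95% interval -0.10 to 0.05).

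**Figure D3:**
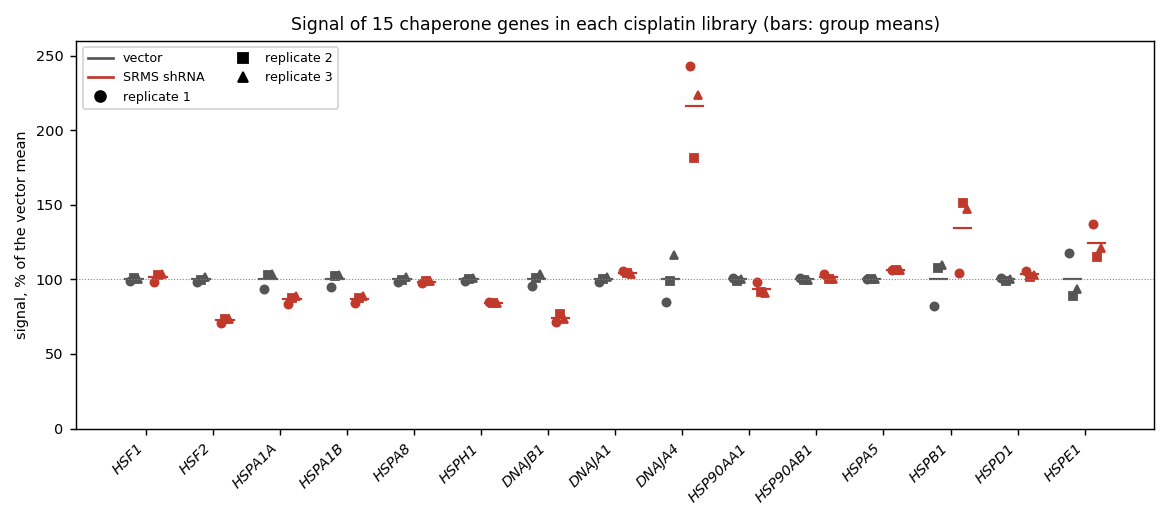
Signal of 15 chaperone genes in each library as percent of the gene's vector mean (vertical axis from 0), with vector libraries in grey, shRNA-labelled libraries in red, one marker shape per replicate number and bars for group means. HSF2, HSPH1 and DNAJB1 lie below the vector in all 3 shRNA-labelled libraries, DNAJA4 lies far above it, and HSPB1 shows replicate 1 as the lowest library in both groups.

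The cytosolic and nuclear DNAJ genes, which choose substrates for HSP70 and switch on its ATPase, held the steepest rise and, after HSF2, the steepest fall among cytosolic members past the threshold. DNAJB1, the inducible partner of HSPA1A, was at 167, 176 and 180 with the vector and at 125, 134 and 128 in the shRNA-labelled libraries. No library of one group reached the other, and the log2 fold change of DNAJB1 (ENSG00000132002, chr19:14514770-14529770 on the minus strand) was -0.43 (SE 0.041, limma adjusted p = 1.37e-05). It shares 12686 bases with TECR on the opposite strand, and the labels describe a stranded kit without saying whether the counting used strand. DNAJA4, a type A partner, was at 1.07, 1.24 and 1.46 with the vector and at 3.06, 2.28 and 2.81 in the shRNA-labelled libraries. These were 32, 57 and 84 reads against 84, 83 and 88, and the values did not overlap. Its log2 fold change was 0.87 (SE 0.133, limma adjusted p = 0.000303), on a scale that understates the change of low genes, and it overlaps WDR61 on the opposite strand by 4362 bases.

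DNAJA2, a constitutive type A partner, fell from 150 ± 1.69 to 129 ± 3.07 (log2 fold change -0.22, limma adjusted p = 0.000378), and with libraries aligned on their median its value of -0.06 did not pass. DNAJA1, the DNAJ member with the highest level per kb, was at 796, 815 and 826 with the vector and at 857, 847 and 844 in the shRNA-labelled libraries. Its log2 fold change of 0.06 did not pass (limma adjusted p = 0.101), while with the replicate block the limma adjusted p was 0.00601. DNAJB5, a type B member of low level, fell from 7.45 ± 0.495 to 5.39 ± 0.0837 with a log2 fold change of -0.43. Over whole families, 1 of 4 DNAJA genes was higher and 2 lower, which became 2 and 1 with libraries aligned on their median, 1 and 2 under quantile scaling and 2 and 2 with the replicate block. Of the 11 DNAJB genes 3 were higher and 5 lower, against 5 and 3 with aligned medians, 3 and 3 under quantile scaling and 5 and 5 with the block. Of the 26 DNAJC genes, the most varied class, 6 were higher and 8 lower, against 13 and 4 with aligned medians and 9 and 7 under quantile scaling.

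Of the 3 HSP90 genes 0 passed by limma and 1 had an unadjusted p under 0.05, while edgeR called 1 and DESeq2 called 0. With libraries aligned on their median 2 were higher and 0 lower, and under quantile scaling 0 were higher and 3 lower. HSP90AA1, the inducible cytosolic form, was at 4326, 4241 and 4285 with the vector and at 4209, 3916 and 3895 in the shRNA-labelled libraries. All 3 of the latter were below all 3 of the former, with replicate 1 nearest to the vector. The log2 fold change was -0.10 (SE 0.041, limma adjusted p = 0.0642), the limma adjusted p was 9.76e-05 with the replicate block and 0.00373 without shRNA-labelled replicate 1, and edgeR's quasi-likelihood test gave an adjusted p of 0.0406. HSP90AB1, the constitutive form, was at 4959, 4891 and 4915 and at 5111, 4930 and 4927, with overlapping groups. The log2 ratio of HSP90AA1 to HSP90AB1 was -0.20 ± 0.00482 with the vector and -0.32 ± 0.0324 in the shRNA-labelled libraries (mean ± SD, n = 3 each), with p = 0.1 in the two-sided exact permutation test and 0.15 adjusted over the 3 pairs. HSP90AB1 also had the highest level per transcript length of all members, 1841 signal per kb with the vector, before HSPA8 with 1423 and HSP90AA1 with 1268. The ranges of these 3 genes per kb did not overlap.

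**Figure D4:**
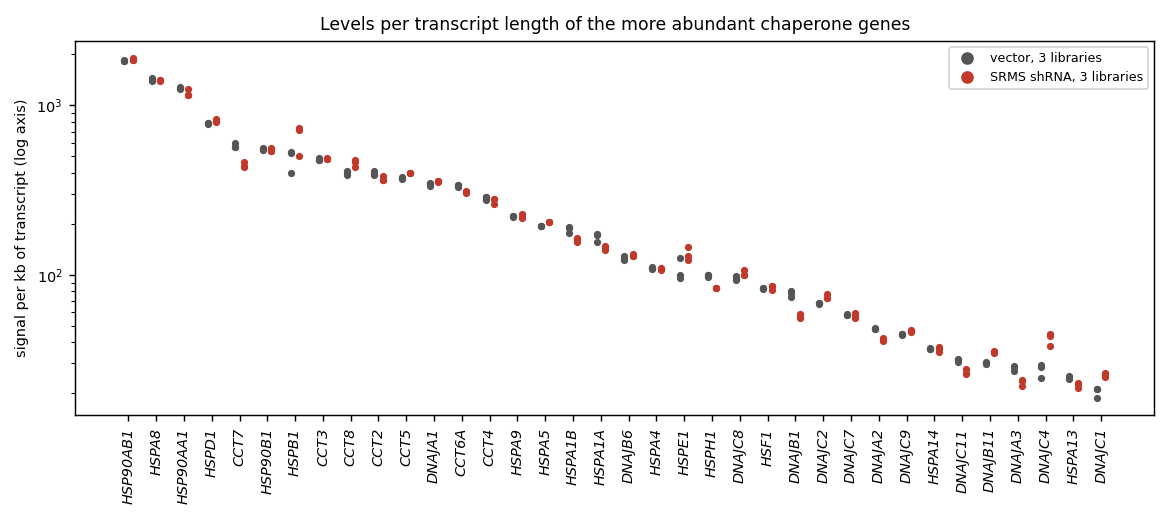
Signal per kb of transcript (log axis) in each vector library (grey) and each shRNA-labelled library (red) for the 36 members with a mean of at least 20 signal per kb, ordered by the vector mean. HSP90AB1, HSPA8 and HSP90AA1 lead, CCT7 and DNAJB1 sit lower in the shRNA-labelled libraries, and the spread of HSPB1 spans both groups.

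The small heat shock proteins, which hold unfolded proteins without ATP, were higher in 3 of 3 genes, though HSPB6 and HSPB9 stayed under 2 in every library. HSPB1, known as HSP27, was at 363, 476 and 484 with the vector and at 459, 667 and 649 in the shRNA-labelled libraries. Replicate 1 was the lowest in both groups, and at 459 it lay within the vector range, so the groups overlapped. The log2 fold change was 0.42 (SE 0.140, limma adjusted p = 0.0265). HSPB1 was higher in 3 of 3 same-numbered pairs, and the fit with the replicate block gave a limma adjusted p of 3.07e-13. limma draws its variance partly from all genes, so that p does not rest on the 3 pairs alone. With replicates 2 and 3 averaged the limma adjusted p was 0.0923, and with no mean-variance trend 0.0892. In the fit with no block it lost the threshold without vector replicate 1 (0.28, limma adjusted p = 0.0983), without shRNA-labelled replicate 2 (0.32, limma adjusted p = 0.112) or without shRNA-labelled replicate 3 (0.34, limma adjusted p = 0.103), and DESeq2 gave an adjusted p of 0.0630. With the replicate block and the length and GC trends removed the HSPB1 value was 0.07 and still passed. The HSPB1 transcript of 909 nt is among the shortest of the members. HSPB6, a small heat shock protein of muscle, was at 1.04, 0.611 and 0.610 and at 1.90, 1.32 and 1.21, or 0.66 on the log2 scale (limma adjusted p = 0.00757). HSPB9, a testis form, stayed under 1 in every library, and its log2 fold change of 0.38 lost the threshold when any library other than vector replicate 1 was left out. HSPB9 also shares its 1922 bases with a gene on the opposite strand. Without shRNA-labelled replicate 2 or 3 and under quantile scaling 1 of the 3 passed, and with libraries aligned on their median all 3 did.

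The CCT chaperonin is a double ring of different subunits that folds actin and tubulin, so its subunits are needed together. As deposited their mRNAs were called in both directions, 25% higher and 37.5% lower, near the 26.6% and 30.2% of all genes. Leaving TCP1, the alpha subunit, to the partner list because of its symbol, 2 of 8 CCT genes were higher and 3 lower, which became 4 and 1 with libraries aligned on their median and 0 and 6 under quantile scaling. CCT7, the eta subunit, was at 1157, 1095 and 1084 with the vector and at 889, 842 and 833 in the shRNA-labelled libraries. Each library of the second group was far below each of the first, and the log2 fold change was -0.38 (SE 0.039, limma adjusted p = 2.38e-05). CCT8, the theta subunit, was at 775, 813 and 824 and at 873, 951 and 931, and rose without overlap by 0.19 (SE 0.041, limma adjusted p = 0.00247). Under quantile scaling the CCT8 value was 0.04 and did not pass (limma adjusted p = 0.435). CCT6A fell by 0.12 on the log2 scale (limma adjusted p = 0.00679), with 0.04 and no call when libraries were aligned on their median. CCT5 was higher by 0.10 (limma adjusted p = 0.0180) but -0.12 under quantile scaling, and it lost the threshold without vector replicate 2, shRNA-labelled replicate 2 or shRNA-labelled replicate 3, with limma adjusted p between 0.0546 and 0.0697. Only 1 CCT gene was higher without vector replicate 2 or without shRNA-labelled replicate 2 or 3. The summed signal of the 8 genes was 6755 ± 7.39 with the vector and 6563 ± 21.0 in the shRNA-labelled libraries (mean ± SD, n = 3 each).

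Over the cytosol and nucleus as a whole 10 of 46 members were higher and 15 lower, against 24 and 6 with aligned medians, 6 and 21 under quantile scaling, 15 and 18 with the replicate block, and 6 higher without shRNA-labelled replicate 2. The median log2 fold change there was -0.01, and 0.15 and -0.11 under those scalings.

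In the ER 4 of 13 members were higher and 6 lower, which became 6 and 3 with aligned medians and 4 and 5 under quantile scaling. Without vector replicate 2 or 3 or without shRNA-labelled replicate 3, 2 were higher. HSPA5 (BiP), the HSP70 of the ER lumen, was at 756, 757 and 757 with the vector and at 806, 802 and 805 in the shRNA-labelled libraries. Its groups did not overlap, but the difference was small, a log2 fold change of 0.09 (SE 0.029, limma adjusted p = 0.0248). It was -0.02 under quantile scaling, and it lost the threshold without vector replicate 2 or 3 or without shRNA-labelled replicate 2 or 3, with limma adjusted p between 0.0590 and 0.0875. HSP90B1 (GRP94), the HSP90 of the ER, was at 1604, 1558 and 1587 and at 1610, 1534 and 1529, with overlapping groups and a log2 fold change of -0.02 (95% interval -0.10 to 0.05). DNAJB11, a soluble partner of HSPA5, was at 71.4, 73.3 and 72.5 and at 85.1, 83.2 and 83.8, and its log2 fold change was 0.21 (SE 0.036, limma adjusted p = 0.000556). DNAJB11 shares 3806 bases with another gene model on the same strand, and 6325 bases with an antisense gene on the opposite strand. The log2 fold change of DNAJC3 (p58IPK), an HSPA5 partner that also restrains the kinase PERK, was in the opposite direction. DNAJC3 was at 14.4, 14.2 and 14.5 and at 10.9, 9.05 and 9.72, with every shRNA-labelled library lower and a log2 fold change of -0.52 (SE 0.078, limma adjusted p = 0.000279).

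The ER members with the lowest fold changes had long transcripts, of 5591 to 6075 nt. DNAJC16 fell from 9.90 ± 0.858 to 6.52 ± 0.588 (log2 fold change -0.57, limma adjusted p = 0.000563), and it overlaps AGMAT on the opposite strand by 12758 bases. DNAJB14, a J protein anchored in the ER membrane, fell from 17.1 ± 0.846 to 12.6 ± 1.13 (log2 fold change -0.43, limma adjusted p = 0.000936). With the replicate block and the length and GC trends removed DNAJC16 was at -0.33, DNAJC3 at -0.27 and DNAJB14 at -0.14, and DNAJB14 no longer passed (limma adjusted p = 0.0511).

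In mitochondria 1 of 9 members was higher and 3 lower, which became 5 and 1 with aligned medians, 3 and 5 under quantile scaling, and 2 and 4 with the replicate block. The count of higher members was 0 without vector replicate 2 or 3 and 2 without shRNA-labelled replicate 1. HSPA9 (mortalin), the HSP70 that pulls proteins into the matrix, was at 1052, 1035 and 1047 with the vector and at 1074, 1035 and 1027 in the shRNA-labelled libraries, and its log2 fold change was 0.00 (95% interval -0.07 to 0.07). DNAJA3, its J-domain partner, was at 74.9, 79.7 and 78.5 and at 66.3, 65.0 and 60.5, without overlap, and fell by 0.28 on the log2 scale (SE 0.046, limma adjusted p = 0.000514). DNAJC11, a protein of the mitochondrial membranes, fell from 104 ± 2.01 to 88.2 ± 2.82 (log2 fold change -0.23, limma adjusted p = 0.000532), and with libraries aligned on their median the value of -0.07 did not pass.

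HSPD1 (HSP60, the chaperonin barrel) and HSPE1 (HSP10, its lid) lie head to head on chromosome 2. HSPD1 was at 1945, 1899 and 1925 with the vector and at 2029, 1959 and 1976 in the shRNA-labelled libraries. These values did not overlap, but the log2 fold change of 0.05 did not pass (limma adjusted p = 0.238), while with the replicate block the limma adjusted p was 0.0180. HSPE1 was at 119, 90.4 and 94.8 and at 139, 117 and 123, so vector replicate 1 lay above shRNA-labelled replicate 2 and the groups overlapped. Its log2 fold change was 0.32 (SE 0.096, limma adjusted p = 0.0154), it lost the threshold without vector replicate 2 (0.24, limma adjusted p = 0.0657) or vector replicate 3 (0.28, limma adjusted p = 0.0605), and it was 0.07 and did not pass (limma adjusted p = 0.0639) with the replicate block and the length and GC trends removed. The log2 ratio of HSPD1 to HSPE1 was 4.25 ± 0.198 with the vector and 3.98 ± 0.102 in the shRNA-labelled libraries (mean ± SD, n = 3 each), with p = 0.2 in the two-sided exact permutation test and after adjustment over the 3 pairs. In the annotation the 2 genes share 3464 bases on opposite strands, and the HSPE1-MOB4 readthrough gene overlaps HSPE1 on the same strand.

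Of the 6 DNAJC members in vesicles or in no compartment 3 were higher and 2 lower, the same counts with aligned medians and under quantile scaling. When any library other than vector replicate 1 was left out, 2 were higher, and DESeq2 also called 2 higher. DNAJC4, a little studied J protein, was at 31.6, 37.5 and 37.0 with the vector and at 48.8, 56.0 and 57.4 in the shRNA-labelled libraries. The groups lay apart, replicate 1 was the lowest in each, and the log2 fold change was 0.61 (SE 0.078, limma adjusted p = 9.74e-05) and 0.32 with the replicate block and the length and GC trends removed. DNAJC4 shares 409 bases on the same strand with NUDT22, and 4009 bases with an antisense gene on the opposite strand. DNAJC13 (RME-8), which acts in endosome sorting, was at 111, 104 and 106 and at 88.0, 76.4 and 80.5, without overlap, and fell by 0.39 on the log2 scale (SE 0.053, limma adjusted p = 0.000133). With the trends removed it was at -0.11, and its transcript is 7730 nt long.

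Transcript length moved with the fold change across all genes, and the members shared this. In the shortest 20% of all genes, up to 1755 nt, 1481 of 2811 were higher and 190 lower, and of the 7 members in that class 4 were higher and 0 lower at the limma threshold. In the longest 20%, 269 of 2806 genes were higher and 1527 lower, and of 11 members 1 was higher and 6 lower. Median log2 fold changes were 0.23 and -0.23 for all genes in these classes and 0.32 and -0.12 for the members. With the replicate block and the length and GC trends removed, DNAJB1 was at -0.51, HSF2 at -0.42, CCT7 at -0.49 and DNAJA4 at 0.92. On the same scale HSPB1 and HSPE1 were at 0.07 each and HSPH1 at -0.01. HSPB1 still passed there, while HSPE1 and HSPH1 did not.

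**Figure D5:**
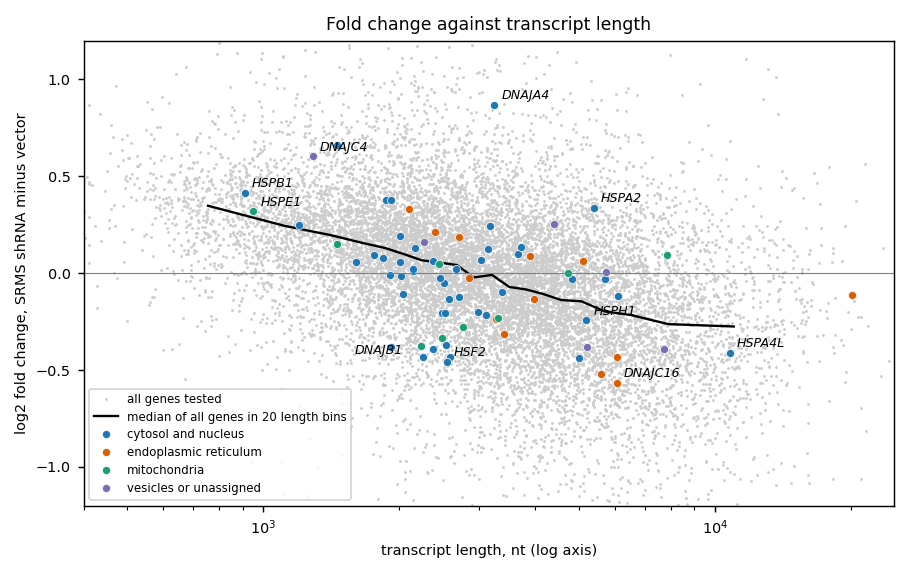
Log2 fold change (shRNA-labelled minus vector) against transcript length in nt (log axis) for all genes tested (grey points), the median of all genes in 20 length bins (black line) and the members by compartment (coloured points); 155 genes outside the axes, none of them a member, are not drawn. The black line falls from left to right, with HSPB1, HSPE1 and HSPH1 near it and DNAJA4 and HSPA2 above it.

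Members with and without a heat shock element in the promoter windows shown above had close medians. Of the 23 with the 2-unit element 3 were higher, 8 lower and 12 did not pass, with a median change of -0.02 on the log2 scale, and of the 44 without it 13 were higher, 17 lower and 14 did not pass, with a median of -0.03. With libraries aligned on their median the counts with the element were 11 higher and 2 lower, and without it 22 and 10. Under quantile scaling they were 3 and 13 with it and 10 and 19 without it. Of the 1580 genes tested that carry the element 26.8% were higher and 31.2% lower as deposited. The extremes with the element were DNAJB1 at -0.43 and DNAJA4 at 0.87, whose stretches above both hold a pair of separate matches. Of the 7 members with 3 units in a row, HSPA6 (a strictly inducible HSP70) was lower and HSP90AA1, HSP90AB1, HSPA8, HSPD1, DNAJA1 and DNAJB6 did not pass by limma. Of the 58 genes tested with 3 units in a row 20.7% were higher and 34.5% lower as deposited. With libraries aligned on their median 5 of the 7 members were higher and 0 lower, and under quantile scaling 0 were higher and 5 lower. HSPA6 and DNAJB6 are named for their element after their values were seen. HSPA6 was at 1.27, 1.35 and 1.25 with the vector and at 1.09, 0.797 and 0.735 in the shRNA-labelled libraries, and its log2 fold change of -0.39 (limma adjusted p = 0.0236) was -0.23 and did not pass with libraries aligned on their median. When single libraries were left out its limma adjusted p reached 0.0814.

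The partners of the chaperones were counted in the same way. Beside the counts of each list below, 26.6% of all genes were higher and 30.2% lower as deposited. The shares of all genes were 44.6% and 17.9% with aligned medians, and 28.3% and 26.3% under quantile scaling. Among HSP90 co-chaperones 5 of 16 were higher and 7 lower, against 9 and 3 with aligned medians and 2 and 6 under quantile scaling. FKBP4 (FKBP52), an immunophilin that brings HSP90 to steroid receptors, was at 463, 460 and 466 with the vector and at 250, 241 and 240 in the shRNA-labelled libraries. Its groups were far apart, by -0.92 on the log2 scale (limma adjusted p = 4.35e-08). CHORDC1, an HSP90 partner, fell from 231 ± 6.56 to 194 ± 2.18, and PIH1D1, of the R2TP complex, rose from 94.9 ± 1.45 to 116 ± 1.05. The log2 fold change of PIH1D1 was 0.29, and with the replicate block and the length and GC trends removed it was 0.049 and did not pass. Among HSP70 co-chaperones 5 of 11 were higher and 3 lower, against 6 and 1 with aligned medians and 5 and 2 under quantile scaling. BAG4, a nucleotide exchange factor, fell from 19.5 ± 0.715 to 10.7 ± 0.555 (log2 fold change -0.83, limma adjusted p = 4.69e-06), and HSPBP1, another exchange factor, rose from 89.3 ± 1.72 to 115 ± 3.27 (0.36, limma adjusted p = 2.33e-05).

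The list of CCT and prefoldin partners held prefoldin, which hands unfolded actin and tubulin to CCT, phosducin-like cofactors, tubulin cofactors that act after CCT, and TCP1, the CCT subunit whose symbol the rule does not take in. In it 11 of 16 were higher and 1 lower, against 12 and 0 with aligned medians and 10 and 0 under quantile scaling. The median transcript of the list was 1544.5 nt. Of all genes up to 1755 nt, 1481 of 2811 were higher and 190 lower. The prefoldin subunit PFDN5 was at 225, 230 and 228 with the vector and at 299, 316 and 303 in the shRNA-labelled libraries, a change of 0.43 on the log2 scale (limma adjusted p = 3.96e-06). PFDN2 and PFDN6 rose by 0.49 and 0.50 on the same scale. The transcripts of these 3 are 677 to 884 nt long, and with the replicate block and the length and GC trends removed the list had 9 higher and 4 lower. In the list of ER folding and unfolded protein response genes 12 of 27 were higher and 5 lower, against 19 and 2 with aligned medians and 12 and 7 under quantile scaling. The prolyl isomerases PPIB and FKBP2 rose by 0.45 and 0.64, and UGGT1, the glucosyltransferase that senses misfolded glycoproteins, fell by 0.54 on the log2 scale.

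In the list of mitochondrial proteostasis genes 9 of 17 were higher and 3 lower, against 14 and 1 with aligned medians and 11 and 3 under quantile scaling. The matrix protease LONP1 rose from 125 ± 1.94 to 159 ± 4.32 (log2 fold change 0.34, limma adjusted p = 2.37e-05), and CLPX, the unfoldase of the ClpXP protease, fell from 80.8 ± 1.16 to 56.2 ± 2.81 (-0.52, limma adjusted p = 6.88e-06). Of 15 heat shock responsive genes outside the families 6 were higher and 5 lower, against 9 and 4 with aligned medians and 3 and 5 under quantile scaling. SERPINH1 (HSP47), the collagen chaperone of the ER and a target of HSF1, was at 347, 354 and 351 with the vector and at 175, 178 and 172 in the shRNA-labelled libraries. No library of the second group came near the first (limma adjusted p = 2.57e-08), and the signal was 0.499 of the vector mean. Of the J-domain genes whose symbols the rule does not take in, HSCB rose from 11.3 ± 0.577 to 13.7 ± 1.47, and GAK was at 77.6 ± 2.07 and 75.2 ± 3.14 and did not pass. HSCB, an iron-sulfur cluster chaperone, lost the threshold without vector replicate 1 or 3 or shRNA-labelled replicate 2 or 3, with limma adjusted p between 0.0551 and 0.0989, and its log2 fold change of 0.26 was 0.045 and did not pass with the replicate block and the length and GC trends removed.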

How the data were processed

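Per the labels' protocols, poly(A) RNA of ES-2 cells was made into stranded libraries and read in pairs. HISAT2, StringTie, cutadapt, FastQC and edgeR were used with GRCh38, per the submitters' processing notes, with settings not given in the sources used here. By its values, the authors' deposited signal is linear, although its name says log CPM: at least 99.99% of values per library were whole reads (tolerance 0.1) over an effective library size. Of 14042 rows, 13 Y copies of pseudoautosomal genes were left out. Names and lengths come from GENCODE 29. The tests used limma 3.58.1 with a mean-variance trend in R 4.3.3 on log2(signal + 0.5) for the 6 libraries, without a block. Since the values proved linear, edgeR 4.0.16 and DESeq2 1.42.0 ran on the recovered reads only as alternatives. Same-numbered libraries deviated together across genes (r of 0.486, 0.238 and 0.225), and a fit paired by number (replicate block) was one alternative. The main fit and the exact tests treated the libraries as unpaired. Replicates 2 and 3 also correlated across numbers (0.202 and 0.198), so pairing by number was apparent only for replicate 1. The chi-square per gene was 1.65 and 1.79 between replicates 2 and 3 and 3.55 to 5.07 for pairs with replicate 1. Named were central members chosen by name, up to 4 per family and 3 per partner list with the smallest adjusted p, and the 5 highest and 5 lowest called members, of which the text gives part and some are not reported here. The members and lists were chosen with earlier results of these data known. Alternatives covered scaling, pseudocount, filter, trend, weights, block, length and GC trends, tool and each library left out.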

Additional observations from a re-analysis of the deposited data

How the results depend on the processing

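Median scaling gave 6254 genes higher and 2510 lower over all genes and 38 and 12 members, with 24 and 6 in the cytosol and nucleus, 3 lower in the ER, and 5 and 1 in mitochondria. It turned the sign of CCT6A (0.038), GAK (0.11), HSP90B1 (0.14) and HSPA8 (0.14). Quantile scaling gave 6 higher in the cytosol and nucleus and 3 higher and 5 lower in mitochondria, and turned CCT5 (-0.12), HSP90AB1 (-0.25), HSPA5 (-0.021), HSPA9 (-0.13) and HSPD1 (-0.13). Median scaling also turned HSP90AA1 (0.063), and quantile scaling DNAJA1 (-0.065) and HSF1 (-0.025). None of these 3 passed as deposited or under the scaling that turned it. Under the other scaling each passed: HSP90AA1 as lower under quantile scaling (-0.28), and DNAJA1 (0.22) and HSF1 (0.18) as higher under median scaling. Requiring a change of 0.5 or more on the log2 scale left 989 genes higher and 1405 lower, 3 and 2 members, 2 and 0 in the cytosol and nucleus, 0 and 2 in the ER, 0 and 0 in mitochondria and 1 and 0 in vesicles or unassigned. Averaging replicates 2 and 3 left 8 members higher, with 5 higher and 9 lower in the cytosol and nucleus and 2, 0 and 1 higher in the ER, mitochondria and vesicles. Mitochondria had 0 members higher without the trend, and 2 with the replicate block or with replicate 1 of both groups left out. With the replicate block and the length and GC trends removed there were 3, and HSF1 passed at -0.14. Over the fits that each left out 1 library, the count of higher members ran from 11 to 17, with 6 to 10 in the cytosol and nucleus, 2 to 3 in the ER and 0 to 2 in mitochondria. The paired fit (replicate block) had 24 members higher and 31 lower and changed no call of a named gene other than HSP90AA1, DNAJA1, HSPD1 and SRMS. On recovered reads edgeR called 3893 genes higher and 4165 lower (18 and 26 members), and DESeq2 3585 and 3790 (15 and 22). Where a value moved, the cause was not tested. Depth left members under about 1 signal, such as HSPB9, with few reads.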
